A study of Mus musculus with 79 samples.

Results

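Imprinted genes are expressed mainly from one parental copy, and 47 of them in 19 loci on 10 chromosomes were followed in mouse embryonic stem cells treated with retinoic acid (RA). They were taken by gene symbol from the deposited tables, with the transcript of highest mean signal for each gene, and make up 47 of 19445 genes with reads in the E14 table, 47 of 19403 in the clone table and 47 of 21022 in the SCC1-mAID table. By textbook assignment 24 are expressed from the paternal copy, 22 from the maternal copy, and Gnas has promoters of both kinds and one that uses both copies. The tables sum both parental copies, so nothing below measures imprinting itself.

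The study followed how these cells respond to 1 uM RA, which makes them differentiate. In the first set, total RNA of wild-type E14 cells was sequenced at 0 h (2 libraries), 2, 4 and 6 h (4 each), 24 h (3), 48 h (4) and a last time (4), called 72 h here after the sample titles although the characteristics field gives 74 h. In the second set, nuclear RNA came from SCC1-mAID cells, an E14 derivative with Rosa26::Tir1 and Scc1-mAID-eGFP, in which the cohesin subunit SCC1 carries a degron that auxin triggers; all 4 groups carry these alleles. These had 500 uM auxin for 6 h with RA for the last 4 h, auxin alone for 6 h, RA alone for 4 h, or no treatment, with 3 libraries each. In the third set, nuclear RNA came from 3 clones, with 2 libraries per clone at each of 7 times: before RA, after 2, 4 and 6 h, and after 24, 48 and 74 h. E3 and H12 are E14 clones made to lack a transient enhancer in the Hoxb locus (HoxTransEdel), and G4 is the E14 clone with it (HoxTransEwt). Each genotype is thus represented by 1 clone (G4) or 2 clones (E3 and H12), and p-values between clones measure the spread between libraries of a clone. No label says that libraries of a group came from separate cultures. The deleted segment is no gene of these tables, and the deletion and the loss of SCC1 protein were not checked here.

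The libraries held 2351122 to 21078958 reads in the E14 set, 3125918 to 7497590 in the SCC1-mAID set and 4753860 to 10448512 in the clone set. The 7 embryonic stem cell markers listed below for E14 were expressed at 0 h in each clone, with sums of 1810 to 1900 CPM in H12, 1370 to 1700 in E3 and 1500 to 1710 in G4. In untreated SCC1-mAID cells their sum was 1870 to 2050 CPM. E14 counts cover exons, while counts of both nuclear sets cover whole gene spans, so levels are not compared across sets.

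Imprinting rests on DNA methylation set in one germ line and kept through early development at control regions. Such a region often decides between a protein-coding gene on one parental copy and a long noncoding RNA (lncRNA) on the other. Many imprinted genes act on embryonic growth, placental function or nutrient supply, and several are expressed strongly in the mid-gestation embryo and switched down after birth. Embryonic stem cells in culture are known to vary in imprinting from line to line and clone to clone.

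Windows at annotated gene starts are printed for the genes on which the results turn. These are Meg3, Rian and Mirg, which moved together early, Peg3 and Mest, which rose late, and Nnat and Zrsr1, which differed between clones. The windows are RefSeq sequences of build GRCm38.p6, from 250 bases before to 50 bases after the start, 5′ to 3′. Capitals mark TGCCGC on either strand (GCGGCA on the printed one), the core bound by the imprint-keeping zinc finger protein ZFP57 when it is methylated. RefSeq windows were found for 37 of the 47 genes, with 56 windows in all. TGCCGC on either strand was in 12 of these 56 windows (21.4%), and in 3813 of all 32851 windows (11.6%). The median number of CpG was 14.5 in the windows of imprinted genes and 7 in all windows. A match of letters is a description and shows no binding.
Meg3: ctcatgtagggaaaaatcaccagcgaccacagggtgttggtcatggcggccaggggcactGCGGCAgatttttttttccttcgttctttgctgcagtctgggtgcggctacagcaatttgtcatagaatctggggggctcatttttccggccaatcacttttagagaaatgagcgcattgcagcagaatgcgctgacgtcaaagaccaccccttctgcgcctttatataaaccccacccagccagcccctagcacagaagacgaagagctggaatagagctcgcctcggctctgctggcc
Rian: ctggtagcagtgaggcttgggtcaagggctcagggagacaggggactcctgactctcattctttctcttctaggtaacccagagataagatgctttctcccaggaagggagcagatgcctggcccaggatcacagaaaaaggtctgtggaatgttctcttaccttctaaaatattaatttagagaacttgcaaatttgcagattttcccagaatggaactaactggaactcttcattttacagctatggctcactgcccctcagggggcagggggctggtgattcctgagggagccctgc
Mirg: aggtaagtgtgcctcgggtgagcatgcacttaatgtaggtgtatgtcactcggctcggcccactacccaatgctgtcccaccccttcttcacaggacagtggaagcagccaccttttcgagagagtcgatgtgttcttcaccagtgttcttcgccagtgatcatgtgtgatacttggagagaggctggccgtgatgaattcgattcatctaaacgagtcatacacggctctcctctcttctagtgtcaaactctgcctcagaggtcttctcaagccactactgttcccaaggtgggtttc
Peg3: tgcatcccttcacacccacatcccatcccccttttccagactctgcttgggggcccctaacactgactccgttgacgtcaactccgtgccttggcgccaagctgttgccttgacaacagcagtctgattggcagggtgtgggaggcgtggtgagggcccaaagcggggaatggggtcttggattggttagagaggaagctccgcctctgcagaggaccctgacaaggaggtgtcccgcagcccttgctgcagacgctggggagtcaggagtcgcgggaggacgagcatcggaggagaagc
Mest: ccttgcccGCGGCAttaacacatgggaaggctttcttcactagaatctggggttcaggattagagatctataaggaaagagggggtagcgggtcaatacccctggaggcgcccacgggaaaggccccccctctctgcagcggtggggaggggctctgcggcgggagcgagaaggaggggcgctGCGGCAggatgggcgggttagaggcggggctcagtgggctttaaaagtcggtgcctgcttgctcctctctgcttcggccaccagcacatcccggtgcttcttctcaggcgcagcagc
Nnat: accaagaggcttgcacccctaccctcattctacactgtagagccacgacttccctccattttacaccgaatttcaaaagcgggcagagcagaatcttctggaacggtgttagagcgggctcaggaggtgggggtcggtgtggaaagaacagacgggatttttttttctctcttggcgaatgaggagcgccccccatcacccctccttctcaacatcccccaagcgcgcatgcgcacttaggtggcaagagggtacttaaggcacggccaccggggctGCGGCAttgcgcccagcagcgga
Zrsr1: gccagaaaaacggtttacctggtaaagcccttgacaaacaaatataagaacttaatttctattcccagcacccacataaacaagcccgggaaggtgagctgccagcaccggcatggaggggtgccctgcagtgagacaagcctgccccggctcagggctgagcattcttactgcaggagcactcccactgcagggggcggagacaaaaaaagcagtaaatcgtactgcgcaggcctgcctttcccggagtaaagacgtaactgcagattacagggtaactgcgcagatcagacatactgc
The windows lie at chr12:109540746-109541045, plus strand (Meg3); chr12:109603695-109603994, plus strand (Rian); chr12:109734731-109735030, plus strand (Mirg). The others lie at chr7:6730370-6730669, minus strand (Peg3); chr6:30737800-30738099, plus strand (Mest); chr2:157559828-157560127, plus strand (Nnat); chr11:22971755-22972054, plus strand (Zrsr1). Meg3 has 2 listed windows, of which the one with more matches is shown. Mest has 3, of which 2 that start 3 bases apart have 2 matches each, and the first of these is shown. The shown windows hold 13 CpG for Meg3, 0 for Rian and 10 for Mirg, so these 3 windows differ widely in this respect. The 3 genes lie in tandem on the plus strand, and whether each window holds a promoter of its own was not tested. Those of Mest and Nnat hold 17 CpG each, that of Peg3 13 and that of Zrsr1 10. The window of Peg3 shares 263 bases with that of Usp29, which starts on the other strand.

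Over the RA course of E14 cells, imprinted genes changed in an early and a late phase. At 4 and 6 h the only genes called in the main fit were maternally expressed lncRNAs of the Dlk1-Meg3 locus, all lower than at 0 h. Some other settings called more imprinted genes, up to 5 at 4 h and up to 4 at 6 h. From 24 h on, genes of many loci rose, while the share of all genes called also grew. At 72 h 27 of 46 tested genes were higher than at 0 h (30.0% of all genes were) and 8 lower. Here and below a gene is called at an adjusted p under 0.05 from edgeR's quasi-likelihood test, adjusted over all genes tested. Levels are CPM, reads scaled to a common total by TMM, and changes are log2 fold changes ± approximate SE. The E14 and clone sets have untreated libraries at 0 h only, so in them RA and time in culture cannot be told apart. In these bulk samples, more cells of a type and more RNA per cell cannot be told apart. Rasgrf1, a guanine nucleotide exchange factor of neurons, had too few reads to be tested in E14.

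The numbers called grew with time, among imprinted genes and among all genes. At 2 h edgeR called 0 of the 46 (0.471% of all 15061 genes tested were called), 5 had an unadjusted p under 0.05, DESeq2 and limma also called 0, and edgeR with the authors' size factors called 1. At 4 h 2 fell (2.42% of all genes called, 0.943% lower), and at 6 h 3 fell (3.88% called, 1.81% lower). At 24 h 8 rose and 4 fell (26.1% of the 46 called, against 27.7% of all genes). At 48 h 22 rose and 5 fell (58.7% against 55.9%), and at 72 h 27 rose and 8 fell (76.1% against 59.9%). The share called in either direction was thus near that of all genes at 24 and 48 h. At 48 h, however, 22 of 46 imprinted genes were called higher, against 4289 of all 15061 genes. The median log2 fold change at 48 h was 0.548 over the tested imprinted genes and -0.000875 over all genes. At 72 h 27 of 46 imprinted genes were called higher, against 30.0% of all genes, and 22 rose and 4 fell by at least 2-fold (31.5% of all genes did so in either direction). The median log2 fold change at 72 h was 0.699 over the tested imprinted genes and -0.0117 over all genes. With the authors' size factors in place of TMM, which move the median of all genes at 72 h to 0.274, 27 rose and 3 fell.

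The E14 libraries at 0 h are replicates 3 and 4, and replicates 1 and 2 of the treated times stood apart for some genes. At 2 h both libraries of replicates 1 and 2 lay above both of replicates 3 and 4 for 23 of 47 genes and below them for 10. The direction turned at the late times, with 2 genes above and 18 below at 48 h, and 5 above and 18 below at 72 h. These counts were made for the imprinted genes only. The share over all genes was not computed, so nothing particular to imprinted genes can be read from them. Peg3 at 72 h had 900 and 1100 CPM in replicates 1 and 2, against 1740 and 1880 CPM in replicates 3 and 4. For Peg10 at 2 h, the 4 libraries gave 454.5, 513.4, 1103 and 1146 CPM. In a fit of replicates 3 and 4 only, 2 genes were called at 2 h, 5 at 4 h, 4 at 6 h, 19 at 24 h, 29 at 48 h and 34 at 72 h. Without replicate 3 or without replicate 4 of 0 h, 6 genes were called at 24 h, and 7 without replicate 4 of 24 h. At 4 h, 0 genes were called without replicate 3 of 0 h and 1 without replicate 4 of 0 h.

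**Figure D1:**
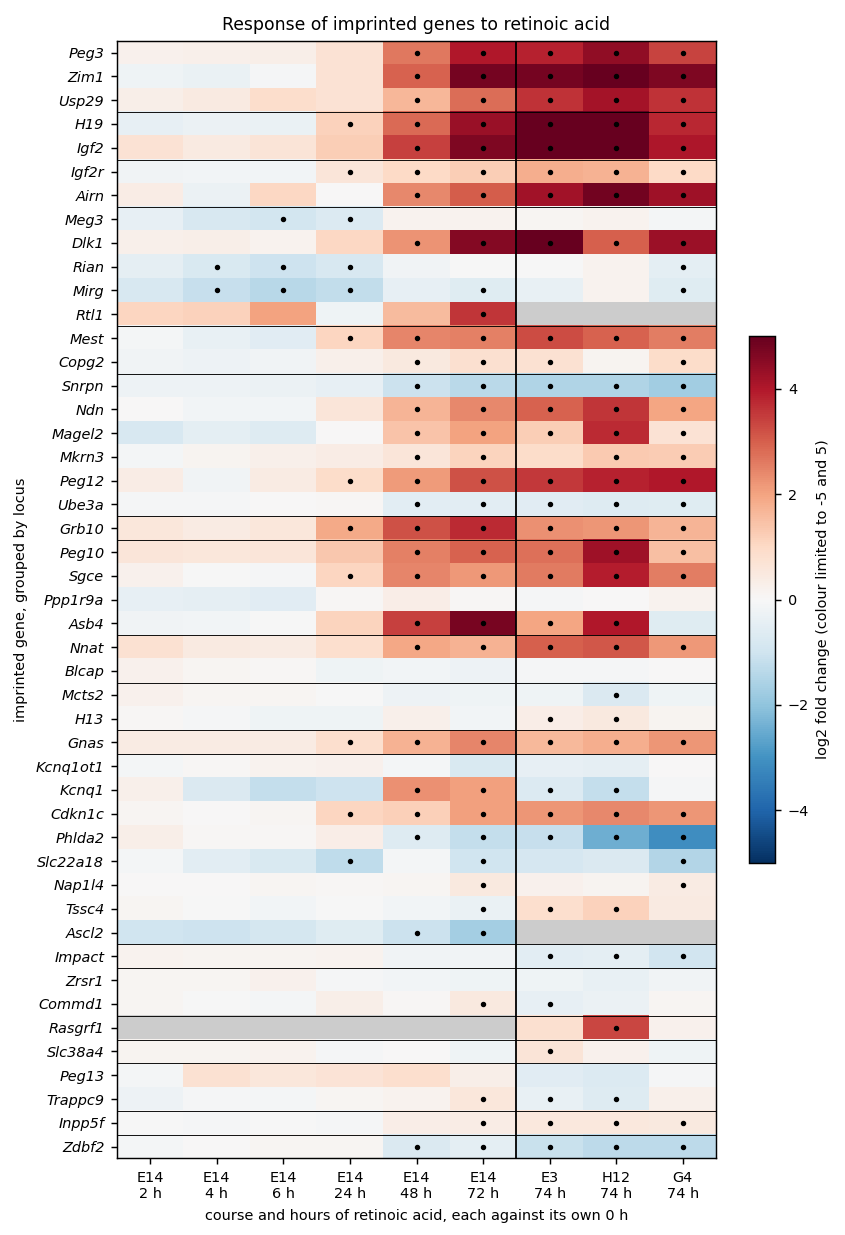
Log2 fold change of the 47 imprinted genes (rows, grouped by locus) at each time of RA against 0 h in E14 cells and at 74 h against 0 h in the clones E3, H12 and G4. Dots mark adjusted p under 0.05 and grey marks genes not tested. The early dip of Meg3, Rian and Mirg in E14 and the late rise of Peg3, Zim1, Igf2, H19 and Dlk1 in every course stand out.

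The Dlk1-Meg3 locus on chromosome 12 took part in both phases. Its maternally expressed lncRNAs fell early, while the paternally expressed Dlk1, a transmembrane protein of the Notch-ligand family, rose late. Meg3 is an lncRNA, Rian hosts small nucleolar RNAs and Mirg hosts microRNAs. All lie in tandem on the plus strand, and whether they are separate transcripts was not tested. Rian had 381.4 and 417.2 CPM at 0 h, 270.9 to 323.8 at 2 h, 214.2 to 266.9 at 4 h, 164.3, 198.8, 202.4 and 216.1 at 6 h, 220.5, 229.3 and 236.9 at 24 h, 300.8 to 429 at 48 h and 289.2, 400.1, 416.8 and 477.2 at 72 h. All libraries of 2 to 24 h lay below both of 0 h, and those of 48 and 72 h overlapped them. Its log2 fold change was -0.77 ± 0.15 at 4 h (adjusted p = 0.00277), -1.03 ± 0.15 at 6 h (adjusted p = 5.45e-05) and -0.80 ± 0.16 at 24 h (adjusted p = 0.0005). At 72 h it was -0.01 (adjusted p = 0.951).

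Mirg had 12.52, 14.87, 21.01 and 23.41 CPM at 6 h, against 46.35 and 49.46 CPM at 0 h, with no overlap. Its log2 fold change was -1.14 ± 0.22 at 4 h (adjusted p = 0.00382), -1.38 ± 0.22 at 6 h (adjusted p = 0.000345) and -1.21 ± 0.25 at 24 h (adjusted p = 0.000897). At 72 h it was -0.62 ± 0.23 (adjusted p = 0.0232). This call was lost with the authors' size factors and with limma, which shares their scaling. It was also lost without replicate 3 or 4 of 0 h and without replicate 1 or 3 of 72 h. Meg3 had 71.34, 108.2, 123.9 and 153.9 CPM at 6 h, against 213.7 and 220.4 CPM at 0 h, also without overlap. Its log2 fold change was -0.91 ± 0.23 at 6 h (adjusted p = 0.0243) and -0.69 ± 0.25 at 24 h (adjusted p = 0.0445). The Meg3 call at 6 h is lost without replicate 3 or 4 of 0 h or replicate 2 of 6 h, and that at 24 h in 17 of 33 alternatives. The calls of Mirg at 6 h and of Rian at 6 h held in all 33.

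Dlk1 had 8.003 and 10.27 CPM at 0 h and 6.258 to 17.22 CPM over 2 to 6 h, levels that overlap. It had 16.42, 16.63 and 23.29 CPM at 24 h, 31.68, 40.38, 41 and 61.74 at 48 h and 134.5, 165.8, 222.9 and 374.6 at 72 h. Every library of 24 h and later was above both of 0 h, and the gene was called at 48 h (log2 fold change 2.24 ± 0.42) and at 72 h (4.61 ± 0.45, adjusted p = 4.83e-08). Rtl1, a retrotransposon-derived gene needed in the placenta, had 0.8189, 1.205, 1.579 and 2.296 CPM at 72 h, against 0 and 0.1929 CPM at 0 h, and rose by 3.59 ± 0.77 (adjusted p = 0.000237). The E14 set holds 61 reads for it in all, and microRNA genes lie within its span on the other strand. Among these, Mir433 has 454 reads, more than Rtl1 around it. In the clone table, whose counts cover whole spans, Kcnq1 has 2921 reads and Kcnq1ot1, inside it on the other strand, 158177. Reads of the inner gene were thus not all counted for the outer one at these places, and the sources used here do not say how counting used the strand.

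**Figure D2:**
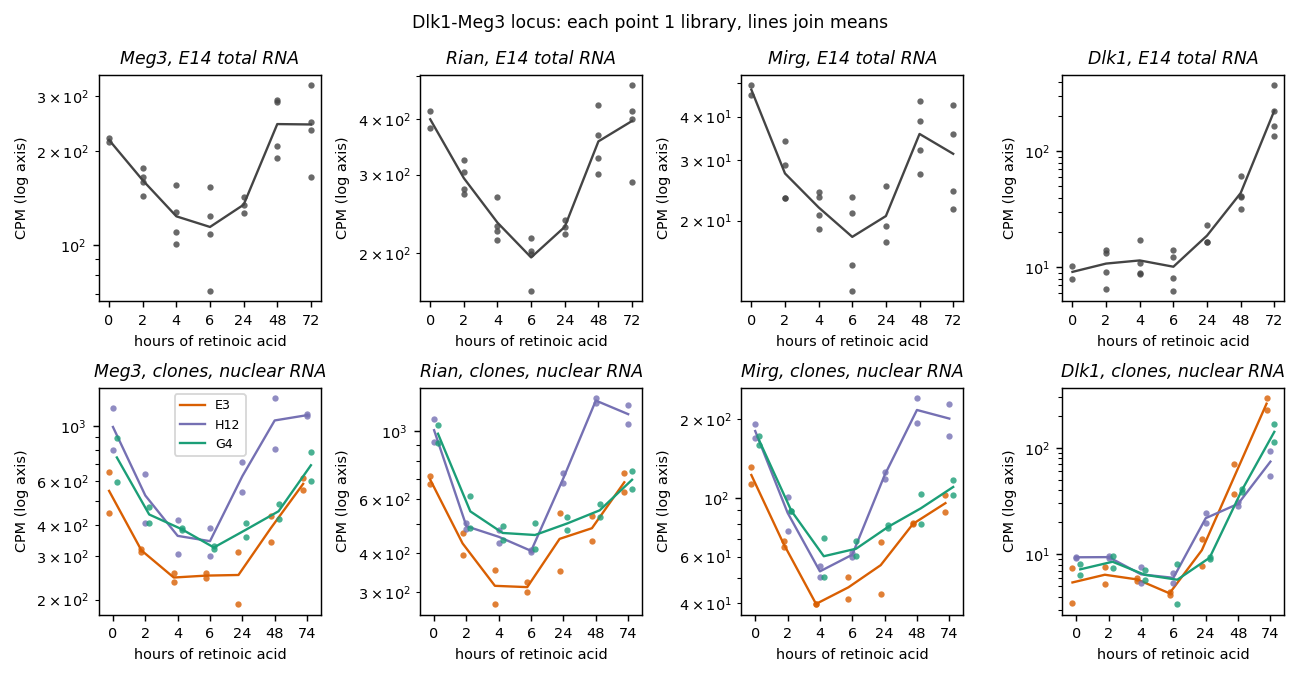
Levels of Meg3, Rian, Mirg and Dlk1 in CPM (log axis) against hours of RA in E14 total RNA (top) and in nuclear RNA of the clones E3, H12 and G4 (bottom). Points are libraries and lines join means. Mean levels of Meg3, Rian and Mirg are lowest at 4 or 6 h in every course, and Dlk1 is highest at the last time in every course.

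The same lncRNAs stood lower at 6 h than at 0 h in each clone. Rian had 298.7 and 322.8 CPM at 6 h against 674.8 and 714.6 at 0 h in E3. In H12 it had 404 and 411.3 CPM at 6 h against 920.6 and 1092 at 0 h, and in G4 414.8 and 503.4 CPM against 913.9 and 1046. For Rian and Mirg no library of 6 h overlapped those of 0 h of its clone. Mirg had 41.59 and 50.2 CPM at 6 h against 113.2 and 131.7 at 0 h in E3. It had 60.07 and 62.02 CPM against 169.1 and 190.5 in H12, and 60.12 and 68.53 CPM against 159.5 and 172.2 in G4. This contrast was not tested in the clones.

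In SCC1-mAID cells RA for 4 h lowered Rian and Mirg with and without auxin. They were the only called genes among 44 tested (Rtl1, Asb4 and Rasgrf1 had too few reads). With auxin and RA against auxin alone, 2 fell and 0 rose (2.67% of 14015 genes tested were called, 0.835% lower), and with RA against no treatment 2 fell and 0 rose (2.53% called, 0.749% lower). Mirg had 12.42, 19.65 and 29.94 CPM with auxin and RA, 70.57, 73.55 and 77.82 with auxin, 17.69, 22.34 and 24.25 with RA and 46.2, 48.43 and 61.27 in untreated cells. Its libraries with RA all lay below those without it. Mirg changed by -1.81 ± 0.22 with auxin present (adjusted p = 7.89e-05) and by -1.28 ± 0.23 without it (adjusted p = 0.0026).

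Rian had 184, 265 and 312.7 CPM with auxin and RA, 491.9, 560.5 and 594.9 with auxin, 266, 278.4 and 291 with RA and 421.1, 423.1 and 459.7 in untreated cells, again with all libraries with RA below those without. It changed by -1.11 ± 0.16 with auxin (adjusted p = 0.000451) and by -0.64 ± 0.16 without it (adjusted p = 0.0391). Meg3 missed the threshold in both, at -1.03 ± 0.28 (adjusted p = 0.0585) and -0.79 ± 0.28 (adjusted p = 0.211). Dlk1 had 12.55, 20.68 and 31.05 CPM with auxin and RA, 11.71, 14.33 and 16.38 with auxin, 14.54, 16.96 and 17.6 with RA and 16.24, 20.77 and 23.44 in untreated cells, groups that overlap. With the authors' size factors 1 gene was called for auxin and RA against auxin, and 0 for RA against no treatment. The limma fit, which shares their scaling, gave the same counts. The call of Rian with RA alone is also lost without any of 8 single libraries: replicate 1 with auxin and RA, replicate 2 with auxin, and each of the 6 libraries with RA alone or untreated. The authors' size factors shift the median of all genes to -0.136 and 0.181 in the 2 contrasts.

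With auxin itself no imprinted gene was called. For auxin against no treatment, edgeR called 0 of 44 (0.278% of all genes) and 8 had an unadjusted p under 0.05. The lowest adjusted p was that of Grb10 (-0.49 ± 0.13, adjusted p = 0.132). For auxin and RA against RA, edgeR called 0 (0.392%) and 2 had an unadjusted p under 0.05. For the difference in RA response with and without auxin, edgeR called 0 of all 14015 genes (0.0%), and 3 imprinted genes had an unadjusted p under 0.05. That difference was -0.53 ± 0.32 for Mirg (adjusted p = 0.701) and -0.47 ± 0.23 for Rian (adjusted p = 0.691). DESeq2 and limma also called 0 imprinted genes in these 3 contrasts. These values do not show that the genes respond alike with and without SCC1.

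**Figure D3:**
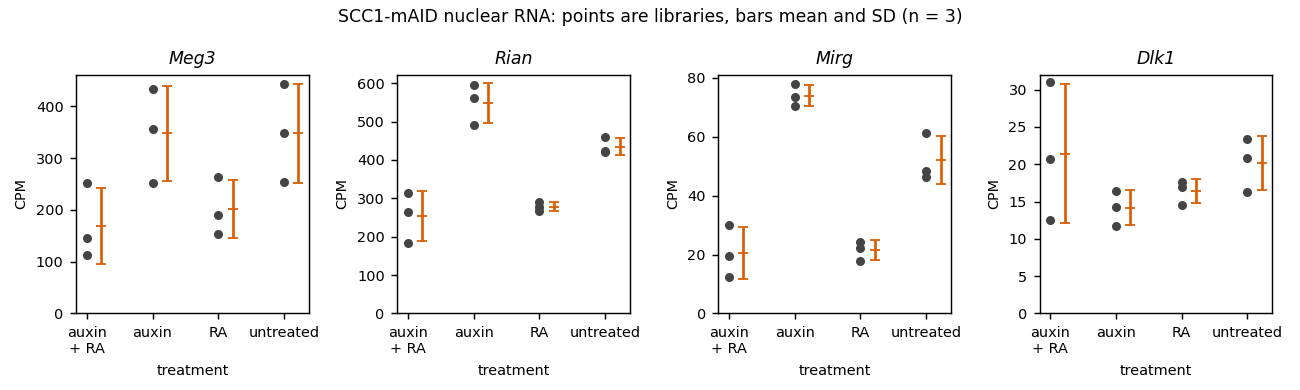
Levels of Meg3, Rian, Mirg and Dlk1 in CPM in nuclear RNA of SCC1-mAID cells with auxin and RA, auxin, RA or no treatment. Points are libraries and bars are mean and SD of 3. For Rian and Mirg the libraries with RA lie below those without it, and the Dlk1 groups overlap.

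The Igf2-H19 and Peg3 loci on chromosome 7 and the Igf2r-Airn locus on chromosome 17 rose late in E14. Igf2, a fetal growth factor, had 1275, 1453, 1498 and 2239 CPM at 72 h, against 62.82 and 64.19 CPM at 0 h (log2 fold change 4.67 ± 0.70, adjusted p = 1.33e-05). H19, the lncRNA beside it, had 139.6, 177.1, 183.5 and 289.5 CPM at 72 h, against 9.26 and 10.65 at 0 h (4.31 ± 0.42, adjusted p = 4.43e-08). Igf2 is paternally and H19 maternally expressed, and both rose without overlap between the times. Igf2r, the receptor that takes up IGF2 for breakdown, had 912.2, 967.9, 969.6 and 990.4 CPM at 72 h, against 388.6 and 425 at 0 h (1.24 ± 0.14). Airn, the paternal lncRNA that silences Igf2r in cis, rose by 3.03 ± 0.53 on 212 reads in the whole E14 set, a call lost when the longest transcript is taken. Igf2r and Airn share 28396 bases on opposite strands.

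H19 hosts the microRNA gene Mir675. Its mature forms are shown because they are the known small RNA products of a gene that rose, with the seed (bases 2 to 8) in capitals, from RefSeq build GRCm38.p6.
mmu-miR-675-3p: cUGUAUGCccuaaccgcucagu
mmu-miR-675-5p: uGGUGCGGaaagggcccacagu
The first lies at chr7:142577078-142577099 and the second at chr7:142577112-142577133, both on the minus strand, and their seeds differ. The E14 table counts 4506 reads for H19 and 304 for Mir675, whose span lies in H19, over all libraries. Mature microRNAs were not measured in these libraries.

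Peg3, a zinc finger protein gene, had 899.5, 1096, 1744 and 1875 CPM at 72 h, against 77.74 and 95.09 at 0 h (4.02 ± 0.47, adjusted p = 4.89e-07). Its neighbours Usp29, a ubiquitin protease, and Zim1, a maternally expressed zinc finger gene, rose by 2.81 ± 0.33 and 4.78 ± 0.41. Zim1 had the highest log2 fold change of the 46 tested genes, with 27.87, 49.59, 59.78 and 63.56 CPM at 72 h, against 1.688 and 1.953 CPM at 0 h. None of the 3 was called before 48 h, and at 48 h all libraries lay above those of 0 h.

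Grb10, Mest and Peg10 rose as well. Grb10, an adaptor that restrains insulin receptor signalling, had 67.9 and 72.84 CPM at 0 h, 226.3, 276.4 and 278.6 at 24 h, 479.7 to 719.5 at 48 h and 763.7, 809, 987.2 and 1132 at 72 h. The libraries of 24 h and later lay above both of 0 h. It was called from 24 h (1.89 ± 0.38, adjusted p = 0.00115) and reached 3.71 ± 0.41 at 72 h. Mest, a hydrolase-like protein of mesoderm, had 1731, 2073, 2199 and 2397 CPM at 72 h, against 361.3 and 378.6 at 0 h, and was called from 24 h (1.08 ± 0.21) to 72 h (2.50 ± 0.21, adjusted p = 4.39e-10). The window printed above for Mest holds 2 matches of TGCCGC.

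At 24 h the other genes called higher were Sgce (1.09 ± 0.27), H19 (1.14 ± 0.41), Cdkn1c (1.06 ± 0.35), Peg12 (0.92 ± 0.34), Gnas (0.84 ± 0.27) and Igf2r (0.60 ± 0.15), and Slc22a18 was lower (-1.27 ± 0.38) beside the 3 lncRNAs. Of 33 alternatives, the call of H19 was lost in 15, that of Peg12 in 10, that of Cdkn1c in 5, that of Gnas in 4 and that of Slc22a18 in 3. That of Igf2r was lost without replicate 4 of 0 h. Igf2 was not called at 24 h, where its libraries had 79.63, 178 and 187.3 CPM, all above those of 0 h.

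Peg10, a retrotransposon-derived gene of the placenta, had 3483, 3747, 4572 and 4878 CPM at 72 h, against 450.1 and 616.1 at 0 h (2.97 ± 0.54). Its neighbours Sgce, a sarcoglycan, and Asb4, a ubiquitin ligase adaptor, rose by 2.16 ± 0.26 and 4.74 ± 0.45, while Ppp1r9a was not called (0.07 ± 0.20). Cdkn1c, an inhibitor of cyclin-dependent kinases, had 63.17, 70.18, 110.9 and 137.2 CPM at 72 h, against 22.43 and 23.63 at 0 h (2.04 ± 0.34). Gnas, the gene of the stimulatory G protein subunit, rose by 2.45 ± 0.28, and Nnat, a small membrane protein of brain and fat, by 1.74 ± 0.48.

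In the Snrpn-Ube3a locus on chromosome 7 the paternal genes moved in both directions. Ndn and Magel2, of the MAGE family, rose at 72 h by 2.41 ± 0.25 and 2.00 ± 0.25, and Mkrn3 and Peg12 by 1.11 ± 0.22 and 3.18 ± 0.32. Snrpn, which encodes a splicing protein, had 68.22, 74.52, 85.25 and 96.41 CPM at 72 h, against 199.4 and 208.9 at 0 h (-1.33 ± 0.19, adjusted p = 1.11e-06). Ube3a, the maternally expressed ubiquitin ligase of the locus, fell by 0.52 ± 0.13. That call was lost with the authors' size factors and with limma, which shares their scaling. The table has 28623 reads for Snrpn and 28625 for Snurf, which shares its transcript, so they are not separate measurements.

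The Kcnq1 locus, also on chromosome 7, held both directions among maternal genes. Cdkn1c and the potassium channel gene Kcnq1 (2.06 ± 0.57, 88 reads in all) rose at 72 h, as did Nap1l4, a histone chaperone, by 0.50 ± 0.14. Phlda2, which restrains placental growth, had 20.53, 23.5, 30.3 and 32.14 CPM at 72 h, against 60.11 and 60.72 at 0 h (-1.19 ± 0.22). Ascl2, a trophoblast transcription factor, fell by 1.69 ± 0.46 and the transporter gene Slc22a18 by 1.01 ± 0.36, a call lost in 5 of 33 alternatives. Kcnq1ot1, the paternal lncRNA antisense to Kcnq1, had 53.45, 87.21, 119.9 and 248.9 CPM at 72 h, against 206.2 and 226.1 at 0 h, times that overlap (-0.76 ± 0.37, adjusted p = 0.0819). It was called at no E14 time. Kcnq1ot1 lies inside Kcnq1 on the other strand, and the E14 set holds 37755 reads for it.

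The remaining called genes changed by less than 2-fold at 72 h. Copg2, a coat protein gene beside Mest, rose by 0.81 ± 0.14, Trappc9, a trafficking gene around Peg13, by 0.58 ± 0.20, Commd1, which holds Zrsr1, by 0.51 ± 0.15, and the lipid phosphatase gene Inpp5f by 0.36 ± 0.15. Zdbf2 fell by 0.47 ± 0.18 and Tssc4 by 0.35 ± 0.15. Of 33 alternatives, the call of Tssc4 was lost in 23, that of Zdbf2 in 8 and that of Inpp5f in 5, and that of Trappc9 without replicate 4 of 0 h. Blcap, Mcts2, H13, Impact, Zrsr1, Slc38a4, Peg13, Ppp1r9a, Meg3, Rian and Kcnq1ot1 were not called at 72 h. By textbook assignment, 15 of 23 tested paternal genes rose and 2 fell at 72 h (median log2 fold change 2.00), and 11 of 22 maternal genes rose and 6 fell (median 0.332). Of all genes, 30.0% rose and 59.9% were called in either direction, and the difference between paternal and maternal genes was not tested.

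Levels of different genes were compared in the authors' FPKM, which are per transcript length. They do not carry the TMM scaling of the CPM, so changes between times can differ from those above. Mest stood highest at 72 h with 534 ± 76.5 FPKM (SD, n = 4), against 77.2 ± 3.12 at 0 h (n = 2). Peg10 had 429 ± 95.3 FPKM at 72 h, against 44.5 ± 10.1 at 0 h, and Igf2 had 275 ± 89.4 at 72 h, against 8.75 ± 0.0689 at 0 h. The SDs of Mest and Peg10 at 72 h overlap. Slc38a4, an amino acid transporter, had 179 ± 4.09 FPKM at 72 h and 170.5 ± 0.589 at 0 h, where it stood highest of the 47. Its mean CPM went the other way, with 1040 at 72 h and 1210 at 0 h. Peg3 had 146 ± 56.6 FPKM at 72 h, against 7.26 ± 1.08 at 0 h. Airn, Rtl1 and Peg13 stood low at 72 h, Airn with 2.42 ± 1.17 FPKM, Rtl1 with 0.191 ± 0.0864 and Peg13 with 0.0868 ± 0.0814. Rasgrf1 was lowest of the 47 with 0.0139 ± 0.0278 FPKM, and Kcnq1 (0.357 ± 0.110) and Ascl2 (0.492 ± 0.554), among others, also lay below Airn.

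Markers of cell types moved with the late rise. The summed level of 7 embryonic stem cell markers (Pou5f1, Sox2, Nanog, Esrrb, Klf4, Zfp42 and Tfcp2l1) was 486 to 1460 CPM at 72 h, against 2310 to 2320 CPM at 0 h, and all but Nanog were called lower. All 7 extra-embryonic endoderm markers (Gata6, Gata4, Sox17, Pdgfra, Dab2, Lama1 and Sox7) rose, with sums of 830 to 1690 CPM at 72 h, against 163 to 171 at 0 h. Of 6 mesenchyme markers (Col1a1, Col1a2, Col3a1, Thy1, Postn and Twist1) 4 rose and 1 fell, with sums of 555 to 829 CPM at 72 h, against 102 to 105 at 0 h. Single libraries had high mesenchyme sums before the late times, with 88.5 to 505 CPM at 2 h, 66.2 to 902 at 4 h and 60.2 to 563 at 6 h. Of 6 neural markers (Irx3, Nes, Pax6, Sox1, Tubb3 and Zic1) 4 rose and 1 fell (158 to 338 CPM at 72 h, against 176 to 188 at 0 h), and of 5 tested trophoblast markers 3 rose (32.1 to 44.6 CPM, against 12.5 to 14.6). The part of these cells in the imprinted gene values was not tested.

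Of 20 listed genes that act on DNA methylation or on imprints, 4 rose and 13 fell at 72 h (median log2 fold change -0.555), where 59.9% of all genes were called. Those that fell are the de novo methyltransferase genes Dnmt3a and Dnmt3b with their cofactor Dnmt3l, the maintenance cofactor Uhrf1, Zfp57 and its partner Trim28, the methylcytosine oxidase genes Tet1 and Tet2, Dppa3, Ehmt2, Hells, Setdb1, and Zfp42, which is also among the stem cell markers. Ehmt1, Kdm1b, Smchd1 and Tet3 rose, and Dnmt1, Ctcf and Zfp445 were not called. At 6 h 1 of the 20, Dnmt3b, fell and 0 rose.

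The late rise was also seen in nuclear RNA of each clone. At 74 h against 0 h, 24 of 45 tested genes rose and 8 fell in E3 (71.1% called, against 56.2% of all 15896 genes). In H12 24 rose and 8 fell (71.1% against 59.4%), and in G4 22 rose and 8 fell (66.7% against 56.3%). Of all 15896 genes, 4512 rose in E3, 4764 in H12 and 4526 in G4. Rtl1 and Ascl2 had too few reads. The 4 courses have separate 0 h libraries. Of the 44 genes tested in all 4 courses, 19 rose in each, as did 17.1% of all 14728 genes tested in all 4, and 4 fell in each, as did 15.2%. The 19 are Peg3, Zim1, Usp29, H19, Igf2, Igf2r, Airn, Dlk1, Mest, Ndn, Magel2, Peg12, Grb10, Peg10, Sgce, Nnat, Gnas, Cdkn1c and Inpp5f. The 4 that fell are Snrpn, Ube3a, Phlda2 and Zdbf2. The transcript kept is the same in E14 and the clones for 38 of the 47 genes. Among the genes just named it differs for Igf2, Airn, Mest, Gnas, Snrpn and Ube3a. The call of Magel2 in G4 is lost in 6 of 13 alternatives, and that of Inpp5f in each clone without 1 of its replicates.

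In the wild-type clone G4 the largest rises at 74 h were those of Zim1 (4.69 ± 0.23), Dlk1 (4.29 ± 0.34), Airn (4.25 ± 0.30) and Igf2 (4.06 ± 0.24). Airn was far better covered in the clone set, whose counts include introns, with 57614 reads. It had 533.2 and 720.2 CPM at 74 h, against 28.46 and 37.5 CPM at 0 h in G4. Igf2r, on the other strand, had 599.5 and 747.3 CPM at 74 h, against 292 and 375 at 0 h (1.01 ± 0.21). Snrpn had 40.58 and 43.88 CPM at 74 h, against 137.4 and 141.3 at 0 h (-1.72 ± 0.15). Phlda2 fell by 3.10 ± 0.35, and Kcnq1ot1 was not called (0.03 ± 0.22). Rian (-0.50 ± 0.17) and Mirg (-0.59 ± 0.18) were called lower at 74 h in G4, calls lost without either replicate of G4. The calls of Ube3a in E3 and G4 are likewise lost without either replicate of the clone.

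The largest difference between E3 and G4 was in Nnat on chromosome 2, which was also lower in H12. At 0 to 6 h Nnat had 0.9956 to 1.852 CPM in E3 (median 1.33) and 2.303 to 5.614 CPM in H12 (median 2.785), against 12.2 to 24.92 CPM in G4 (median 18.47), over 8 libraries each. No library of E3 or H12 reached those of G4. At 24 to 74 h the levels were 2.833 to 13.51 CPM in E3 and 6.236 to 24.3 in H12, against 32.6 to 88.21 in G4, over 6 libraries each. E3 over G4 was -3.76 ± 0.22 early (adjusted p = 3.88e-13) and -3.14 ± 0.19 late. H12 over G4 was -2.47 ± 0.19 early (adjusted p = 5.21e-12) and -2.04 ± 0.17 late. All 4 calls held in the 13 alternatives.

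Nnat lies inside Blcap on the other strand. Blcap, also imprinted, was slightly higher in the deletion clones, by 0.19 ± 0.06 in E3 and 0.34 ± 0.06 in H12 early, the call in E3 being lost in 8 of 13 alternatives. The 56 other genes tested within 2 Mb had a median log2 fold change of 0.00578 in E3 and 0.053 in H12 early. Neural markers also differed. Of the 6 listed for E14, 0 were higher and 2 lower in E3 than in G4 early (median -0.586) and 0 higher and 4 lower late (median -0.767). In H12 2 were higher and 3 lower early (median -0.965), and 0 higher and 5 lower late (median -1.06). Their sums at 0 h were 52.4 to 64.6 CPM in H12 and 54.1 to 124 in E3, against 92.7 to 159 in G4. At 74 h they were 313 to 524 CPM in H12 and 308 to 322 in E3, against 400 to 415 in G4. The part of neural cells in the Nnat values was not tested. Nnat still rose from 0 to 74 h in each clone, by 2.99 ± 0.46 in E3, 3.10 ± 0.38 in H12 and 2.16 ± 0.29 in G4.

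**Figure D4:**
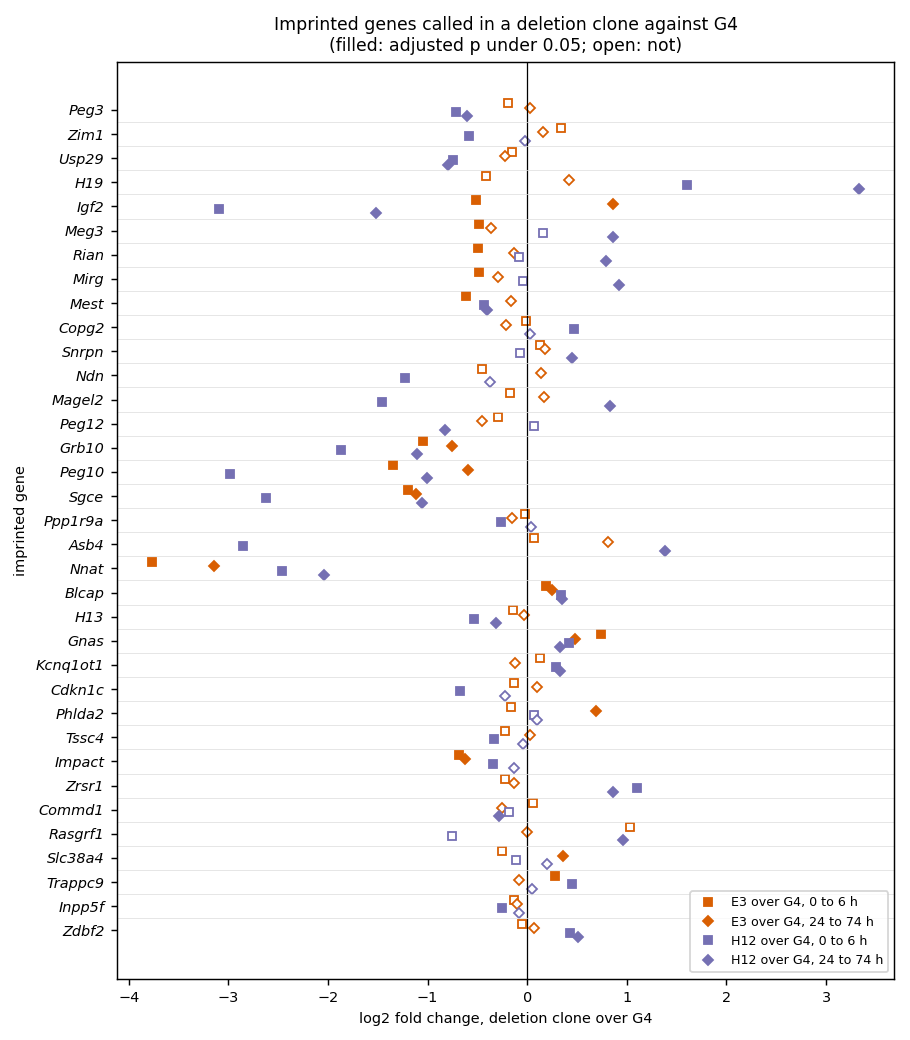
Log2 fold change of E3 over G4 and of H12 over G4, at 0 to 6 h (squares) and 24 to 74 h (diamonds), for the 35 imprinted genes called in at least 1 of the 4 contrasts. Filled symbols have adjusted p under 0.05. Nnat, Peg10, Sgce and Grb10 lie left of 0 in all 4, and H19 and Igf2 lie on opposite sides in H12.

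How many imprinted genes differed depended on the clone. E3 against G4 gave 3 higher and 10 lower of 45 at 0 to 6 h (10.6% of all genes called) and 5 higher and 5 lower at 24 to 74 h (8.9%). H12 against G4 gave 8 higher and 18 lower at 0 to 6 h (40.1%) and 13 higher and 11 lower at 24 to 74 h (27.2%). E3 against H12 gave 18 higher and 9 lower early (37.4%) and 8 higher and 12 lower late (20.8%). E3 against G4 late came to 6 calls without replicate 2 of G4, and E3 against H12 late to 12 without replicate 1 of H12. The contrasts of E3 and H12 share the G4 libraries, so their values are given side by side and their likeness is not a result.

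In the Peg10 locus on chromosome 6, Peg10 and Sgce were lower in both deletion clones. Ppp1r9a and Asb4 of this locus were not called in E3. In H12 all 4 genes were lower early, and late Peg10 and Sgce were lower and Asb4 was higher. Peg10 had 146.4 to 262.7 CPM in E3 (median 207.7) and 50.13 to 93.67 CPM in H12 (median 64.18) at 0 to 6 h, against 356.6 to 690.9 CPM in G4 (median 521.5), without overlap. E3 over G4 was -1.35 ± 0.13 (adjusted p = 2.85e-08) and H12 over G4 was -2.98 ± 0.14 (adjusted p = 3.09e-16). Sgce, which starts beside Peg10 on the other strand, was lower by 1.20 ± 0.09 in E3 and by 2.62 ± 0.11 in H12. At 24 to 74 h the difference for Peg10 was -0.60 ± 0.15 in E3, lost without replicate 2 of E3 or replicate 1 of G4, and H12 was also called lower, with 187.1 to 1362 CPM in H12, against 735.2 to 1812 in G4. At 74 h Peg10 had 1296 and 1309 CPM in E3 and 1338 and 1362 in H12, against 1143 and 1632 in G4, so both deletion clones lay within the range of G4. The 13 other genes tested within 2 Mb had medians of -0.0229 in E3 and 0.0557 in H12 early.

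Grb10 on chromosome 11 had 222.1 to 330 CPM in E3 (median 278.9) and 123 to 226.2 CPM in H12 (median 148.5) at 0 to 6 h, against 447 to 678.3 CPM in G4 (median 559.8), without overlap. E3 over G4 was -1.04 ± 0.08 early and -0.75 ± 0.09 late, and H12 over G4 was -1.87 ± 0.08 early (adjusted p = 1.78e-17) and -1.10 ± 0.09 late. The 8 other genes tested within 2 Mb had medians of -0.159 in E3 and -0.0659 in H12 early, and of -0.451 in E3 and 0.261 in H12 late. In E3 late 2 of these 8 were called lower and 0 higher. On chromosome 11, which also carries the Hoxb genes, 216 of 1260 tested genes were lower and 31 higher in E3 early (median -0.108), and 324 were lower and 207 higher in H12 early (median -0.0642).

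Igf2 and H19 differed in opposite directions in H12. At 0 to 6 h Igf2 had 2.686 to 5.508 CPM in H12 (median 4.195), against 30.64 to 43.3 CPM in G4 (median 32.88), a log2 fold change of -3.09 ± 0.15 (adjusted p = 2.07e-16). H19 had 2.015 to 4.397 CPM in H12 (median 3.066), against 0.367 to 1.907 CPM in G4 (median 0.7682), a change of 1.60 ± 0.26 (adjusted p = 6.27e-06) on 158 reads in H12 and 54 in G4. No library of H12 overlapped those of G4 for either gene. At 74 h H19 had 298.4 and 345.1 CPM in H12, against 13.67 and 17.8 in G4, and Igf2 had 330.7 and 499.5 in H12, against 445.2 and 712.7 in G4. Over 24 to 74 h the change was 3.33 ± 0.18 for H19 and -1.52 ± 0.13 for Igf2.

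In E3 Igf2 was -0.52 ± 0.12 against G4 early (adjusted p = 0.00442) and 0.86 ± 0.12 late (adjusted p = 1.25e-05), and H19 was not called in either window (-0.41 ± 0.34 and 0.42 ± 0.22). Early, Igf2 had 20.21 to 29.55 CPM in E3, against 30.64 to 43.3 in G4. The 71 other genes tested within 2 Mb had medians of -0.00921 in E3 and -0.0423 in H12 early.

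Zrsr1, a paternally expressed splicing-factor-like gene within Commd1 on chromosome 11, was higher in H12. It had 19.97 to 27.43 CPM in H12 (median 23.03) and 6.187 to 10.69 CPM in E3 (median 9.392) at 0 to 6 h, against 7.883 to 13.67 CPM in G4 (median 10.42). The H12 libraries lay above all those of G4 in both windows. H12 over G4 was 1.10 ± 0.11 early (adjusted p = 9.24e-10) and 0.86 ± 0.13 late, and E3 over G4 was -0.23 ± 0.12 early (adjusted p = 0.228). Commd1, on the other strand, stood at -0.18 ± 0.08 in H12 early (adjusted p = 0.0718), and was lower late (-0.28 ± 0.09, adjusted p = 0.0209), a call lost without replicate 1 or 2 of H12 or replicate 2 of G4. The 20 other genes tested within 2 Mb had a median of -0.299 in H12 early, with 10 lower and 2 higher.

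**Figure D5:**
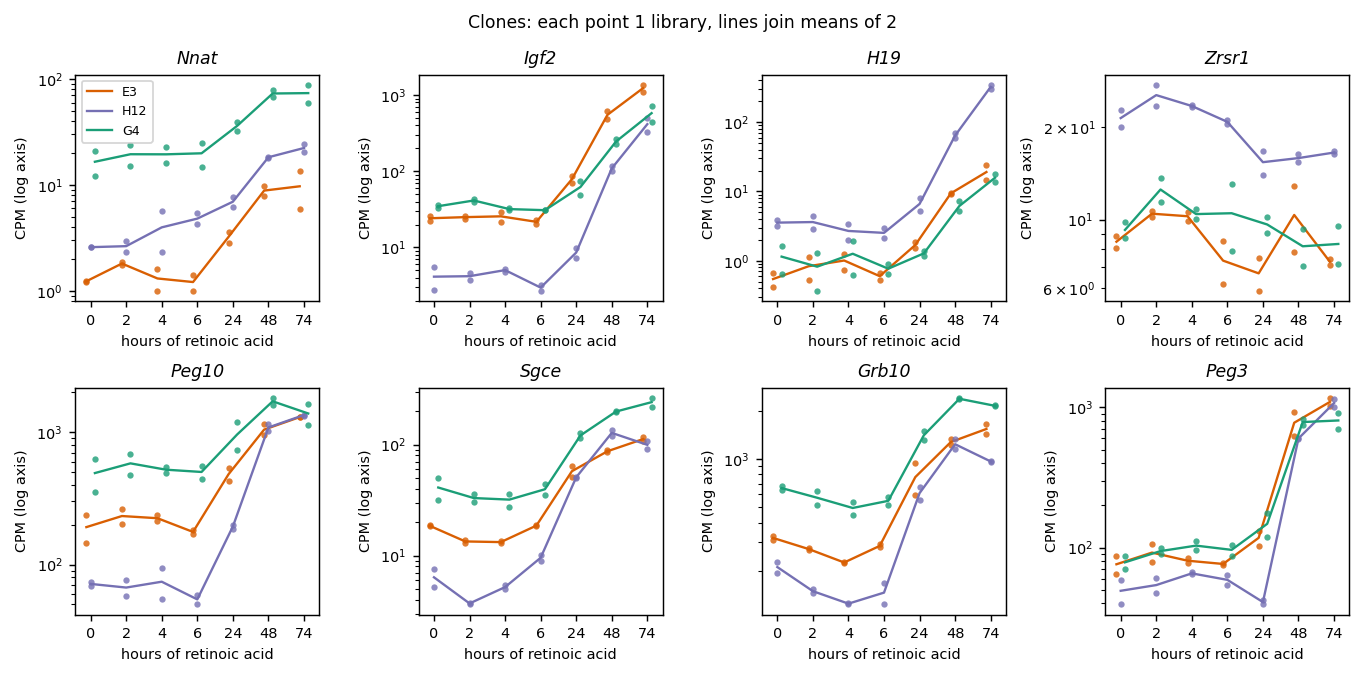
Levels of Nnat, Igf2, H19, Zrsr1, Peg10, Sgce, Grb10 and Peg3 in CPM (log axis) against hours of RA in the clones E3, H12 and G4. Points are libraries and lines join means of 2. Nnat is lower in E3 and H12 than in G4 at every time, Zrsr1 is higher in H12 than in G4 at every time, and the Peg10 libraries of E3 and H12 lie within the range of G4 at 74 h.

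Gnas was higher in both deletion clones, by 0.74 ± 0.08 in E3 and 0.42 ± 0.08 in H12 early. Its transcript in the clone table is another than in the E14 table, and shares 11117 bases with Nespas on the other strand (63355 reads for Gnas and 35748 for Nespas). Impact, a regulator of translation on chromosome 18, was lower by 0.68 ± 0.09 in E3 early and 0.62 ± 0.11 late, and by 0.35 ± 0.09 in H12 early, where leaving out replicate 2 of H12 or replicate 1 of G4 ends the call. The Peg3 locus was lower in H12 early, with Peg3 at -0.71 ± 0.11, Usp29 at -0.74 ± 0.11 and Zim1 at -0.58 ± 0.17, the call of Zim1 being lost without replicate 2 of G4 or of H12. Mest was lower early by 0.62 ± 0.12 in E3 and 0.43 ± 0.11 in H12. The Mest calls are lost without replicate 1 of G4 or without replicate 2 of the deletion clone.

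Asb4 was -2.86 ± 0.57 in H12 against G4 early, on 19 reads in H12 and 80 in G4, and 1.39 ± 0.34 late, the late call being lost without replicate 1 of H12. Inpp5f was 0.26 ± 0.07 lower in H12 early, a call lost without replicate 2 of H12 or replicate 1 of G4. Around it on chromosome 7, 64 of the 93 other genes tested within 2 Mb were lower in H12 early (median -0.554). In E3 62 of them were lower early (median -0.623), while Inpp5f itself was not called (-0.13 ± 0.07).

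In the Dlk1-Meg3 locus the lncRNAs differed with the clone and the phase. Early, E3 over G4 was -0.49 ± 0.13 for Meg3, -0.49 ± 0.08 for Rian and -0.49 ± 0.09 for Mirg, the Meg3 call being lost without replicate 1 of E3 or replicate 2 of G4, and none was called in H12. Late, H12 over G4 was 0.87 ± 0.15 for Meg3, 0.80 ± 0.10 for Rian and 0.92 ± 0.10 for Mirg, and none was called in E3. At 48 h Rian had 1233 and 1279 CPM in H12, against 524.3 and 580.2 in G4, with no overlap. Of 50 other genes tested between the start of Meg3 and the end of Mirg, 33 were higher in H12 late (median 1.02). Many are small RNA genes inside the same host transcripts and are no independent measurements. Dlk1 was not called in either clone against G4 in either window.

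The change from 0 to 74 h differed from that of G4 for 12 genes in H12 (12.4% of all genes called) and for 2 in E3 (0.579%). In H12 the difference of log2 fold changes was 4.61 ± 1.16 for Asb4, 2.98 ± 0.47 for Magel2, 2.74 ± 0.58 for H19, 2.74 ± 0.37 for Peg10, 2.55 ± 0.36 for Igf2 and 1.39 ± 0.26 for Sgce. Ndn, Zim1, Peg3 and Mirg were also more positive, and Copg2 and Trappc9 more negative. A more positive response need not mean a higher level at 74 h. At 0 h Igf2 had a mean of 4.13 CPM in H12, against 34.8 in G4, and Peg10 had 71.4 against 492. At 74 h the means were 415 CPM in H12 and 579 in G4 for Igf2, and 1350 and 1390 for Peg10. In E3 the difference of log2 fold changes was 1.62 ± 0.32 for Igf2 and 1.97 ± 0.47 for Phlda2. The E3 count was 0 without replicate 2 of E3 or of G4, and 1 without replicate 1 of G4. The H12 count was 5 without replicate 1 of G4, 6 without replicate 2 of G4 or of H12, and 7 without replicate 1 of H12. Magel2, Peg10 and Igf2 kept the H12 call in all 13 alternatives. Asb4, with the largest difference, stood at low levels. Its means were 0.273 CPM at 0 h and 4.89 at 74 h in H12, against 0.959 and 0.608 in G4.

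Markers of extra-embryonic endoderm stood far higher in H12 than in the other clones at 74 h. Their summed level was 7480 to 7950 CPM in H12 and 808 to 1010 in E3, against 822 to 1180 in G4. Over 24 to 74 h 6 of these 7 markers were higher in H12 than in G4, and 5 of 7 had a more positive 74 h response. At 0 to 6 h 2 of the 7 were higher in H12 than in G4 (Gata6 and Sox7) and 1 was lower (Dab2), with a median of 0.295. Of the 6 mesenchyme markers 4 had a more positive response in H12, with sums at 74 h of 1070 to 1180 CPM in H12 and 621 to 656 in E3, against 197 to 353 in G4. Over 24 to 74 h, however, 1 of the 6 was higher (Thy1) and 3 were lower (Col1a1, Col3a1 and Twist1) in H12 than in G4 (median -0.375), and at 48 h the sums were 306 to 398 CPM in H12, against 430 to 452 in G4. Of the 7 embryonic stem cell markers 5 were higher and 1 lower in H12 over 24 to 74 h (median 0.799), with sums at 74 h of 159 to 191 CPM in H12, against 106 to 112 in G4. Of 4 tested trophoblast markers 1 was higher and 0 lower. The neural markers are given above beside Nnat. The part of these cells in the 74 h responses of H19, Igf2, Magel2, Asb4 and Peg10 in H12 was not tested. Over 24 to 74 h H19, Magel2 and Asb4 were called higher in H12 than in G4, and Igf2 and Peg10 lower. At 0 h, where no RA had been given, the endoderm sums were 267 to 281 CPM in H12 and 375 to 443 in E3, against 316 to 332 in G4. The mesenchyme sums at 0 h were 17.5 to 23.2 CPM in H12 and 34.2 to 50.8 in E3, against 53.1 to 56.6 in G4.

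Some of the listed genes that act on methylation or imprints differed between clones. Of the 20 listed, 7 were higher and 3 lower in H12 than in G4 early (median 0.0927), where 40.1% of all genes were called, and 4 were higher and 1 lower late (27.2% of all genes). In E3 3 were higher and 1 lower than in G4 early (median 0.0669, 10.6% of all genes), and 1 was higher and 0 lower late (8.9%). Dnmt3l was higher in both clones in both windows, and Zfp57 was higher in H12 in both windows.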

How the data were processed

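RNA was sequenced from E14 cells (total RNA) and from SCC1-mAID cells and the clones (nuclear RNA). The authors deposited signal values, which are reads per RefSeq transcript divided by 1 size factor per library, and FPKM for E14, per the file headers and the values. The submitters' processing notes name STAR, Bowtie2, SAMtools, DESeq2, mm10 and dm6, without versions or order. The counter and its use of strand are not given in the sources used here. Multiplying by the step of each library recovered whole reads for all values, within 0.1 read.

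Each gene symbol was represented by its transcript of highest mean signal. Where the SCC1-mAID table names no gene, identifiers were matched to the other tables or RefSeq; 1040 of its 35326 transcripts and 81 in each other table stayed unnamed. The recovered reads were tested with edgeR 4.0.16 (quasi-likelihood, robust, TMM, filterByExpr; R 4.3.3, statmod 1.5.0) in 1 fit per set. Benjamini-Hochberg adjustment covered all 15061 (E14), 14015 (SCC1-mAID) or 15896 (clones) genes tested. The test was also tried on simulated reads. These had the same spread for every gene, no replicate structure, and changes only in genes with many reads. The trial therefore cannot show how the test does for genes with few reads. The SE is the log2 fold change over the root of F and is approximate near 0. Clone contrasts average 0 to 6 h or 24 to 74 h.

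The alternatives were DESeq2 1.42.0, limma 3.58.1 on log2(signal + 1), RLE scaling, the authors' size factors, no filter, the longest transcript, a replicate block, replicates 3 and 4 only (E14) and leaving out libraries. The limma fit used the deposited signal, so it shares the scaling of the authors' size factors and is no separate check on it. The 47 genes, the loci and the lists were chosen with earlier results of these data known. In each comparison the text names the called genes with the largest changes, and Meg3, Rian, Mirg, Dlk1, Rtl1, H19, Igf2, Peg3, Igf2r, Airn, Kcnq1ot1, Cdkn1c, Snrpn, Mest, Peg10, Grb10 and Nnat where measured; others it names were chosen after their values were seen.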

Additional observations from a re-analysis of the deposited data

Results flagged for a closer look

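In 8 of 230 groups of 4 E14 libraries (3.48%), 1 library lay far from the other 3 by Dixon's ratio at the 95% level; chance gives about 1 in 20. At 2 h, Zim1 had 2.46 CPM in replicate 2 (1.19 to 1.32 in the others), Impact 208 CPM in replicate 2 (164 to 169), and Mkrn3 5.15 CPM in replicate 3 (7.17 to 7.49). At 4 h, Kcnq1ot1 had 163 CPM in replicate 1 (245 to 253) and Rtl1 0.545 CPM in replicate 3 (0.112 to 0.182). At 6 h, Kcnq1 had 0.494 CPM in replicate 1 (0.0 to 0.0778) and Ppp1r9a 88.9 CPM in replicate 3 (59.1 to 63.8). At 48 h Ppp1r9a had 166 CPM in replicate 3 (116 to 117).

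The change from 0 to 74 h differed between a deletion clone and G4 for 14 values, by edgeR's test of the difference of log2 fold changes. E3 minus G4 gave 1.62 for Igf2 and 1.97 for Phlda2. H12 minus G4 gave 4.61 for Asb4, 2.98 for Magel2, 2.74 for H19, 2.74 for Peg10, 2.55 for Igf2, 1.6 for Ndn, 1.39 for Sgce, 1.21 for Zim1, 1.08 for Peg3 and 0.748 for Mirg. It gave -0.775 for Copg2 and -0.886 for Trappc9. At 0 to 6 h H12 was called lower than G4 for Igf2, Peg10, Sgce, Magel2, Asb4, Peg3, Zim1 and Ndn, and higher for H19, Copg2 and Trappc9, while Mirg was not called.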

How the results depend on the processing

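Over the single-gene calls, 5634 values were recomputed under the alternatives; 5286 kept the call, 348 lost it (289 of them when a library or replicate was left out) and 0 changed sign. For counts of called genes, the authors' size factors gave 1 at 2 h (0 in the main setting), 0 for RA against untreated and 1 for auxin and RA against auxin in SCC1-mAID cells (2 in each), and limma gave 0 and 1 for these last contrasts. Replicates 3 and 4 only gave 2 at 2 h, 5 at 4 h and 19 at 24 h (0, 2 and 12). Leaving out 1 library gave 0 to 1 genes at 2 h, 0 to 3 at 4 h, 2 to 4 at 6 h, 6 to 13 at 24 h, 23 to 28 at 48 h and 29 to 35 at 72 h in E14. In SCC1-mAID cells it gave 1 to 2 for RA against untreated, 2 to 5 for auxin and RA against auxin (5 without replicate 2 of auxin and RA) and 0 in the other 3 contrasts. Leaving out a replicate of a clone gave 10 to 16 and 6 to 10 for E3 against G4 (early and late), 21 to 28 and 19 to 24 for H12 against G4, and 21 to 28 and 12 to 21 for E3 against H12. At 74 h against 0 h it gave 23 to 33 in E3, 27 to 33 in H12 and 23 to 30 in G4. For the difference from G4 it gave 0 to 3 in E3 and 5 to 15 in H12. In a fit with a replicate block, the E3 difference had 4 calls (2 without) and 1 single-gene call of 311, that of Meg3 at 24 h, was lost. The main fits hold no replicate term. After group means were removed, 28 of 67 pairs of libraries with the same number correlated above 0.1 in E14. The same held for 10 of 18 pairs in SCC1-mAID cells and 180 of 420 in the clones. Median correlations of same-number pairs were 0.0699 in E14 (other pairs -0.0166), 0.152 in SCC1-mAID cells (-0.0848) and 0.0821 in the clones (-0.0821). The causes were not tested. Genes with few reads (Rtl1, Rasgrf1, Ascl2, Kcnq1 and Airn in E14, H19 in the clones before 24 h) are limited by depth.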

Other observations

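Kcnq1, the potassium channel gene, was higher at 72 h in E14 (2.06 ± 0.57) but lower at 74 h in E3 (-0.69 ± 0.28) and H12 (-1.20 ± 0.30), and not called in G4 (-0.07 ± 0.29). It had 4.349 and 5.197 CPM at 74 h in H12, against 10.12 and 11.85 at 0 h. E14 counts cover exons and clone counts the whole span of Kcnq1. The clone table has 2921 reads for Kcnq1 and 158177 for Kcnq1ot1, which lies inside it on the other strand, so most Kcnq1ot1 reads were not counted for Kcnq1. The call in E3 is lost in 6 of 13 alternatives, and that in H12 without replicate 2 of H12.

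Tssc4, of the same locus, was also called in opposite directions, at -0.35 ± 0.15 at 72 h in E14, lost in 23 of 33 alternatives, and at 0.85 ± 0.26 in E3 and 1.17 ± 0.26 in H12 at 74 h. Its transcript differs between the E14 and clone tables. Rasgrf1 rose at 74 h in H12 (3.32 ± 1.06), with 0.8417 and 0.9171 CPM at 74 h and 0 and 0.1624 CPM at 0 h, a call lost without replicate 1 of H12.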
